A study of Saccharomyces cerevisiae with 4 samples.

Results

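The genes described here encode proteins of the yeast mitochondrial ribosome. They were picked by name alone: MRPL, MRPS, MRP or RSM followed by a number. This gave 66 of the 5816 genes in the deposited tables. They were followed in a strain of Saccharomyces cerevisiae with a CHD1 deletion (2 libraries) and in wild type (2 libraries). CHD1 encodes a chromatin-remodelling ATPase that spaces nucleosomes over transcribed genes. Both genotypes share the BY4741 background and were kept at 30 °C with shaking in YPD, a rich glucose medium, until harvest in mid-log phase. Total RNA was sequenced from each, and no other allele or treatment is given.

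The mitochondrial ribosome translates the few messages that the mitochondrial genome encodes, most of them for subunits of the respiratory chain and the ATP synthase. Nearly all of its proteins are encoded in the nucleus, made in the cytosol and imported. Many descend from bacterial ribosomal proteins, and others have no bacterial counterpart. In cells growing on glucose much of the energy comes from fermentation, and messages for mitochondrial proteins are kept low in part by Puf3, an RNA-binding protein of the Pumilio family that binds the 3′ untranslated region of such messages.

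Of the 66 genes, 37 encode proteins of the large subunit, which joins amino acids into protein, and 27 encode proteins of the small subunit, which reads the message. The remaining 2 carry a name of the family but are not classed as structural ribosomal proteins: MRP8, whose product is not a component of the ribosome, and RSM22, which encodes a methyltransferase-like protein linked to the small subunit. By ancestry, 40 of the subunit proteins have a bacterial counterpart and 24 do not. The genes lie on 14 chromosomes, and RSM19 and MRPS12 are the only members that are direct neighbours. Their median coding length was 706.5 bases.

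The members hold sequences that resemble each other after the stop codon. The Puf3 motif TGTANATA, where N is any base, was searched on the coding strand in the 200 bases after the stop codon of every gene, in the R64 assembly, whose sequence is that of sacCer3. It was present in 64 of 66 members (97.0%), against 840 of 5812 genes with a coding sequence (14.5%), and 776 of the 5746 genes that are not members (13.5%). All 37 large-subunit and all 27 small-subunit genes held it. The 2 genes without it were MRP8 and RSM22, the same 2 that are not structural ribosomal proteins. Among 138 cytosolic ribosomal protein genes, 6 held the motif (4.35%). A match is a run of letters and not a measured binding site.

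The sites below belong to the genes whose RNA levels the results turn on. The motif is in capitals, each sequence runs 5′ to 3′ on the coding strand, and the number after each gene name in the sentence that follows is the distance from the stop codon to the first base of the motif.
RSM19, first site: gggatctagTGTATATAgatttctag
RSM19, middle site: gatatatcaTGTAAATAagatcaagc
RSM19, last site: gactcgggcTGTATATAtatatatat
MRPS12: acaacctttTGTAAATAgcaatgacc
MRPS17: actacactcTGTAAATAtatacaact
MRPS16, first site: tgtatatgtTGTATATAtgttttact
MRPS16, last site: tatcagactTGTAAATAatacatcta
MRPL44: aagcaagccTGTAAATAatatatatg
All are on the minus strand of sacCer3. The RSM19 sites, at 10, 38 and 66 bases, lie at chrXIV:695026-695051, chrXIV:694998-695023 and chrXIV:694970-694995. The MRPS12 site, at 74 bases, is chrXIV:694271-694296, and the MRPS17 site, at 56 bases, is chrXIII:636219-636244. The MRPS16 sites, at 86 and 127 bases, are chrXVI:528883-528908 and chrXVI:528842-528867. The MRPL44 site, at 88 bases, is chrXIII:720856-720881.

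RSM19 was the one member with 3 sites. A further 12 members held 2 and 51 held 1, which makes 78 sites in all. They began 8 to 165 bases after the stop codon with a median of 54.5, and 71 of the 78 began within 100 bases. At the base that the motif leaves free, TGTAAATA was found 36 times, TGTATATA 24 times, TGTACATA 17 times and TGTAGATA 1 time.

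**Figure D1:**
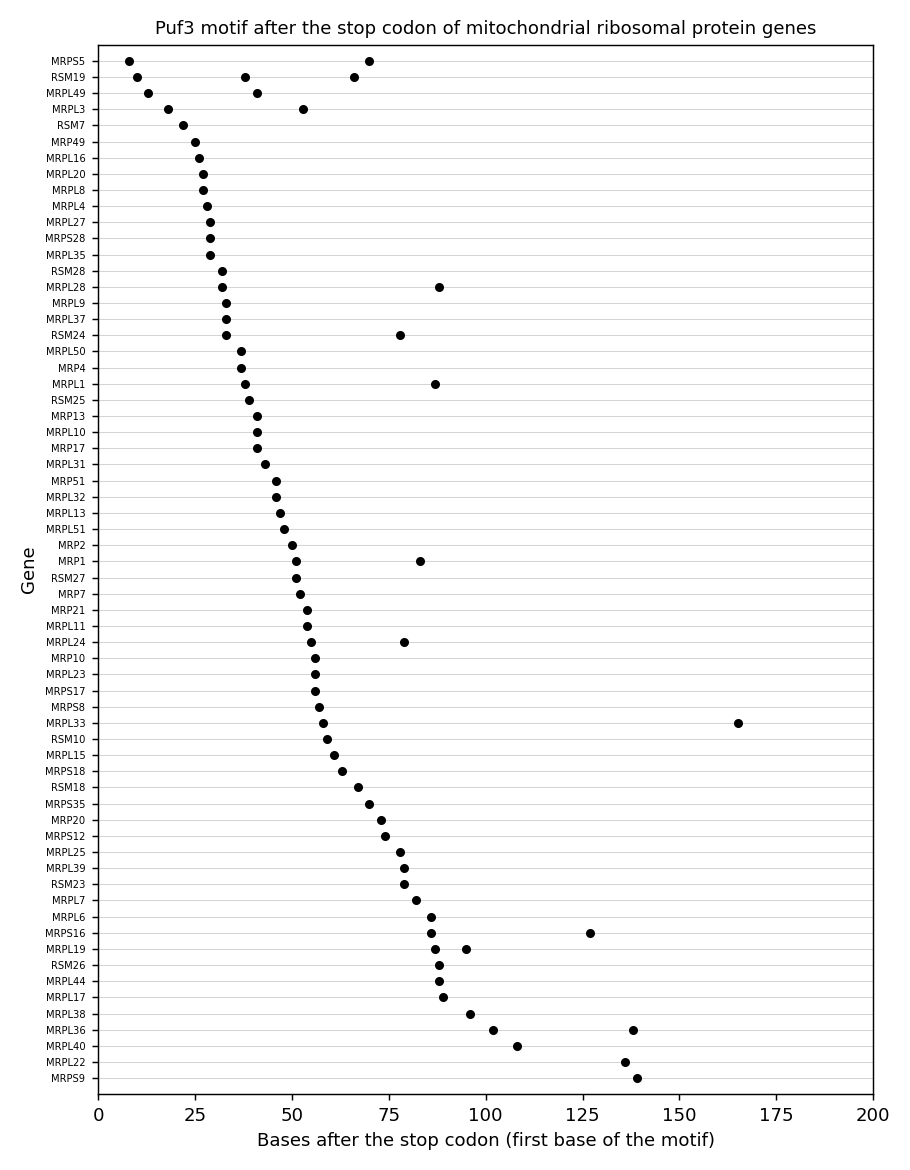
Position of each Puf3 motif after the stop codon of the 64 mitochondrial ribosomal protein genes that hold one; the x axis is the distance in bases from the stop codon to the first base of the motif, the y axis lists genes by their nearest site, and each point is 1 site. Of 78 points, 71 lie within 100 bases of the stop codon, and RSM19 is the gene with 3.

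Other genes of mitochondrial protein synthesis shared the motif. From a list of 78 written from general knowledge, 61 held it (78.2%): all 13 mitochondrial ribosomal proteins with names of another form (IMG1 and NAM9 among them), all 14 aminoacyl-tRNA synthetases, 9 of 12 translation factors, 5 of 7 assembly and rRNA modification factors, 13 of 17 message-specific activators and insertion factors, and 7 of 9 genes of mitochondrial transcription and RNA turnover. None of the 6 regulators on the list, which act in the nucleus or cytosol, held it.

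Sequencing depth bounds what can be seen for these genes. Reads on genes numbered 4117998 and 2597514 in the deletion libraries (replicates 1 and 2), against 2145684 and 2824770 in the wild-type libraries. Members took 9599 and 6507 of them in the deletion, which is 0.233% and 0.251%, against 4411 and 6061 in wild type, which is 0.206% and 0.215%. A median member had 109 and 76.5 reads in the deletion libraries, against 48 and 69.5 in the wild-type libraries. CHD1 itself had 7 and 3 reads in the deletion and 211 and 396 in wild type, a log2 fold change of −6.40 ± 0.27 (SE; adjusted p = 3.34e-11, edgeR's quasi-likelihood test), as the labels say. Reads on TAR1 and YLR154C-G, which overlap ribosomal RNA genes, made up 10.4% and 11.6% of gene reads in the deletion and 9.65% and 7.72% in wild type. Whether replicates were grown as separate cultures is not stated, and the spread behind each p-value may then be technical.

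Most members were moderately expressed. Per kb of gene length and per 1e6 TMM-scaled reads, averaged over the 4 libraries, the 65 tested members had a median of 33.0. The 138 cytosolic ribosomal protein genes had a median of 1104 on the same scale, 33.4-fold higher. The highest member, MRP8, stood 18.9-fold above the lowest, MRPL40. Among the 63 tested proteins of the subunits the span was 13.5-fold, and the quartiles were 21.2 and 46.2.

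MRP8 had 177 and 217 reads per kb per 1e6 reads in the deletion and 167 and 193 in wild type, so the genotypes overlapped. MRPS16, the counterpart of bacterial bS16 and the most abundant message of a structural member, followed with 122 and 122 in the deletion, against 144 and 153 in wild type. MRPS8, the counterpart of uS8, had 111 and 119 in the deletion, against 79.3 and 130 in wild type, where the replicates stood farther apart than the genotypes. MRP2, the counterpart of uS14, had 102 and 91.3 in the deletion and 96.6 and 80.2 in wild type. All 3 of these proteins belong to the small subunit.

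The lowest levels were found among large-subunit genes. On the same scale, MRPL40, the counterpart of uL24, had 9.95 and 13.3 in the deletion and 8.35 and 8.33 in wild type. MRP20, the counterpart of uL23, had 8.50 and 11.4 in the deletion, against 11.01 and 13.1 in wild type. In bacteria both of these proteins sit around the exit of the tunnel through which the new protein leaves the ribosome. MRPL9, the counterpart of uL3, had 12.04 and 20.6 in the deletion and 16.7 and 12.1 in wild type. MRPL25, which has no bacterial counterpart, had 16.02 and 18.3 in the deletion, against 16.6 and 11.6 in wild type. MRPL40 was the one gene of these 4 whose genotypes did not overlap.

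Small-subunit genes stood above large-subunit genes, with medians of 43.5 and 26.6 reads per kb per 1e6 reads, a ratio of 1.64. Median gene lengths in the tables were close, 854 and 814 bases. Within each subunit, genes with a bacterial counterpart had the higher median: 51.9 against 33.9 in the small subunit, and 27.9 against 26.6 in the large. These are descriptions of level, with no test.

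**Figure D2:**
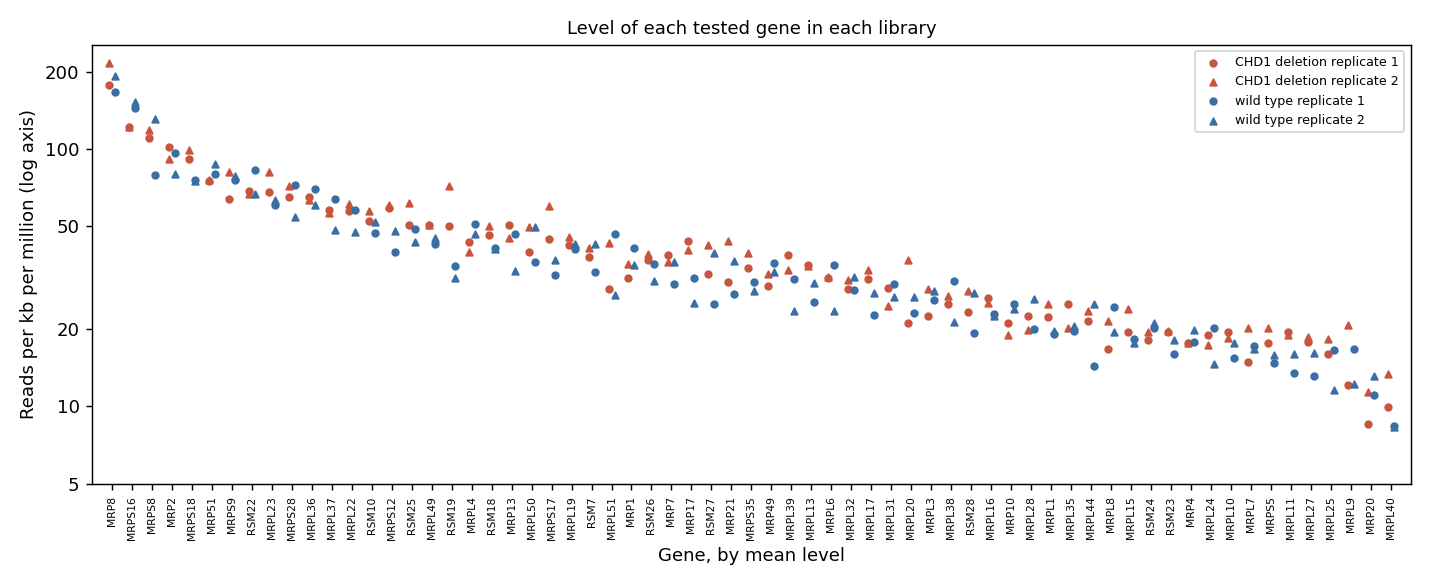
Level of each of the 65 tested genes in each library, in reads per kb of gene length per 1e6 TMM-scaled reads on a log axis; genes run from the highest to the lowest mean, red points are the CHD1 deletion and blue points wild type, with circles for replicate 1 and triangles for replicate 2. MRP8 and MRPS16 lead, MRP20 and MRPL40 end the order, and for most genes the colours lie close together.

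Few of these messages passed the test between the genotypes after adjustment, as was so over all genes. In edgeR's quasi-likelihood test over all 5488 genes tested, 1 member, RSM19, was higher in the deletion at an adjusted p under 0.05, none was lower, and 64 did not pass. Over all genes tested 1.68% passed in the higher direction and 3.06% in the lower. At an unadjusted threshold of 0.05, 6 members passed on the higher side and 1 on the lower side, beside 8.53% and 11% of all genes. These member counts were 12 and 0 with library sizes from total gene counts, and 2 and 0 with DESeq2. With total gene counts 67.8% of all genes had a positive estimate, against 50.6% in the main fit. The share of all genes past the unadjusted threshold was not counted in these alternatives, so the moves cannot be laid to the members. MRPL33, the counterpart of uL30, was left out by the filter on low counts, with 14 and 11 reads in the deletion and 5 and 9 in wild type.

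The bounds on the size of these differences were moderately narrow. The median standard error was 0.19 log2 units (0.12 to 0.28), and 62 of 65 intervals at 95% confidence lay within 2-fold in either direction. The other 3, those of RSM19, MRP17 and MRPL40, reached above 2-fold higher. For 35 members the interval lay within 1.5-fold, and for 58 it crossed 0. Smaller differences in most of these genes would not be detectable at this depth.

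RSM19 rose in the deletion. It encodes the small-subunit counterpart of bacterial uS19, a protein of the head of that subunit, and lies at chrXIV:695052-695327 on the minus strand (coding sequence). It had 91 and 81 reads in the deletion, against 30 and 37 in wild type. That is 21.2 and 30.3 CPM (counts per 1e6 TMM-scaled reads) in the deletion, against 14.8 and 13.3 CPM in wild type. Both deletion libraries stood above both wild-type libraries, and the second deletion library was the highest. The log2 fold change was 0.84 ± 0.23 (SE; adjusted p = 0.0432). The call was lost with limma-voom (adjusted p = 0.0557) and where wild-type replicate 2 (0.0727) or deletion replicate 2 (0.338, log2 fold change 0.60) was left out, and DESeq2 gave no adjusted p for it; over the alternatives that gave one, the adjusted p ranged from 0.00345 to 0.338.

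MRPS12, the counterpart of uS12, a protein of the decoding centre, is the next gene downstream of RSM19 on the same strand, at chrXIV:694361-694822. Their coding sequences are 229 bases apart, and all 3 RSM19 sites printed above lie in that gap. MRPS12 had 161 and 103 reads in the deletion, against 51 and 85 in wild type, or 37.5 and 38.5 CPM in the deletion and 25.2 and 30.6 CPM in wild type. Its log2 fold change was 0.43 ± 0.17 (adjusted p = 0.153), which did not pass. The gene lengths in the tables exceed the coding lengths, by 147 bases for RSM19 and 173 for MRPS12, and where each feature ends is not given, so reads from the gap could count to either gene.

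The other members with the smallest p on the higher side were also small-subunit genes, and none of them passed the adjusted threshold. MRPS17, the counterpart of uS17, had 38.2 and 51.2 CPM in the deletion, against 27.6 and 31.7 CPM in wild type (log2 fold change 0.55 ± 0.18, adjusted p = 0.0819). MRP17, the counterpart of bS6, had 21.4 and 19.8 CPM in the deletion, against 15.3 and 12.2 CPM in wild type (0.61 ± 0.22, adjusted p = 0.118). In both genes the genotypes did not overlap. MRPS18, the counterpart of uS11, had 70.8 and 76.2 CPM in the deletion and 58.3 and 57.9 CPM in wild type (0.33 ± 0.13, adjusted p = 0.146). MRPS35, which has no bacterial counterpart, had 43.1 and 49.3 CPM in the deletion and 38.0 and 35.3 CPM in wild type (0.33 ± 0.15, adjusted p = 0.244). Again neither pair of genotypes overlapped. MRPS17 passed with the replicate number as a block (adjusted p = 0.0155), with library sizes taken from total gene counts (0.0437), and where wild-type replicate 2 (0.0325) or deletion replicate 1 (0.0197) was left out. MRP17 passed without wild-type replicate 1 (0.0405).

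On the lower side no member passed. MRPS16 had 312 and 195 reads in the deletion, against 174 and 253 in wild type, which is 72.6 and 72.9 CPM in the deletion and 85.9 and 91.0 CPM in wild type. Its log2 fold change was −0.29 ± 0.12 (unadjusted p = 0.0282, adjusted p = 0.187), and the genotypes did not overlap. The next were MRPL4, the counterpart of uL29, at −0.22 (adjusted p = 0.404), MRP51, the counterpart of bS1, at −0.16 (0.493), MRP20 at −0.34 (0.526), MRP1 at −0.19 (0.549) and RSM22 at −0.13 (0.586). MRPL4 had 50.3 and 46.3 CPM in the deletion and 59.2 and 54.3 CPM in wild type. MRP51 had 91.9 and 93.1 CPM in the deletion and 97.7 and 108 CPM in wild type. For MRP20, MRP1 and RSM22 the genotypes overlapped.

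**Figure D3:**
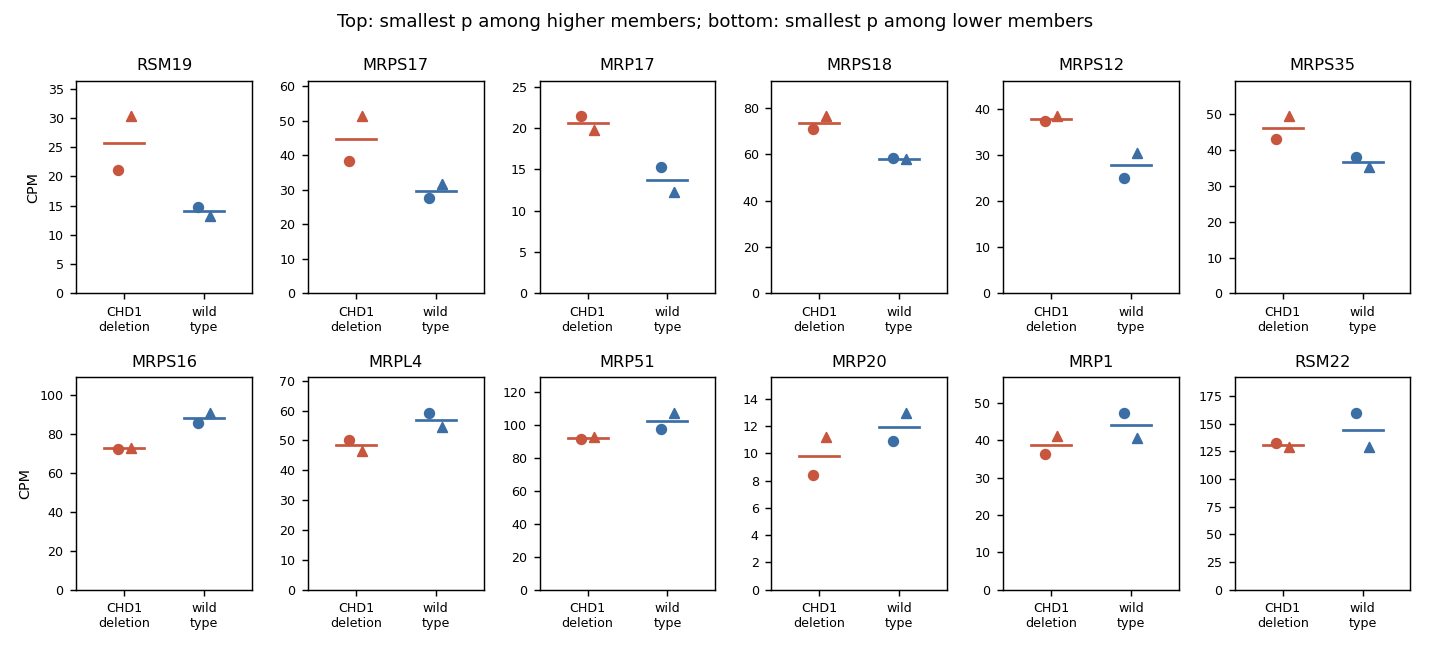
CPM, counts per 1e6 TMM-scaled reads, of the 6 higher and the 6 lower members with the smallest p, with the CHD1 deletion left of wild type in each panel; circles are replicate 1, triangles replicate 2, and the line is the mean of the 2 libraries. The deletion points of RSM19 lie at 21.2 and 30.3 and its wild-type points at 14.8 and 13.3, while in MRP20, MRP1 and RSM22 the genotypes overlap.

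Across the 65 tested members, log2 fold changes ran from −0.34 to 0.84 with a median of 0.13, beside a median of 0.004 over all genes tested. The estimate was positive for 46 members and negative for 19, or 70.8% positive against 50.6% of all genes. With library sizes from total gene counts in place of TMM, the median of all genes moved to 0.11 and that of the members to 0.24, so relative to all genes the members' median was 0.13 in both. The median of the members was positive under every alternative run and lay between 0.07 without deletion replicate 2 and 0.24.

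In 25 members (38.5%) both deletion libraries stood above both wild-type libraries in CPM, and in 7 (10.8%) both stood below. Of all genes tested, 24.9% stood above and 24.4% below. The 7 below were MRPS16, MRPL4, MRP51, MRP10, MRP49, RSM24 and MRP4, listed here after their values were seen. The other 33 overlapped. By library, the members' median deviation from each gene's mean was 0.02 and 0.13 log2 units in the deletion and −0.07 and −0.05 in wild type, so deletion replicate 2 stood farthest from the rest. Between replicates, member counts varied 1.14 times as much as counting error gives in the deletion pair and 1.62 times in the wild-type pair (chi-square per degree of freedom). Over all genes tested the same ratios were 2.50 and 6.17. This ratio can rise with read count, so members and all genes are not on equal terms. Members were scaled by their own totals here, which removes a shift between replicates that all members share.

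By subunit the medians were close, 0.15 over 27 small-subunit genes and 0.14 over 36 tested large-subunit genes. In 12 small-subunit genes (44.4%) both deletion libraries stood above wild type and in 5 (18.5%) below. For large-subunit genes these were 13 (36.1%) and 2 (5.56%), and for all genes tested 24.9% and 24.4%. The 6 higher members and the 1 lower member past 0.05 without adjustment were all small-subunit genes, and no large-subunit gene passed that threshold. The difference between subunits was not tested, and the standard errors of large-subunit genes, which had lower levels, were larger, with a median of 0.21 against 0.17. Genes with and without a bacterial counterpart had medians of 0.14 each.

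**Figure D4:**
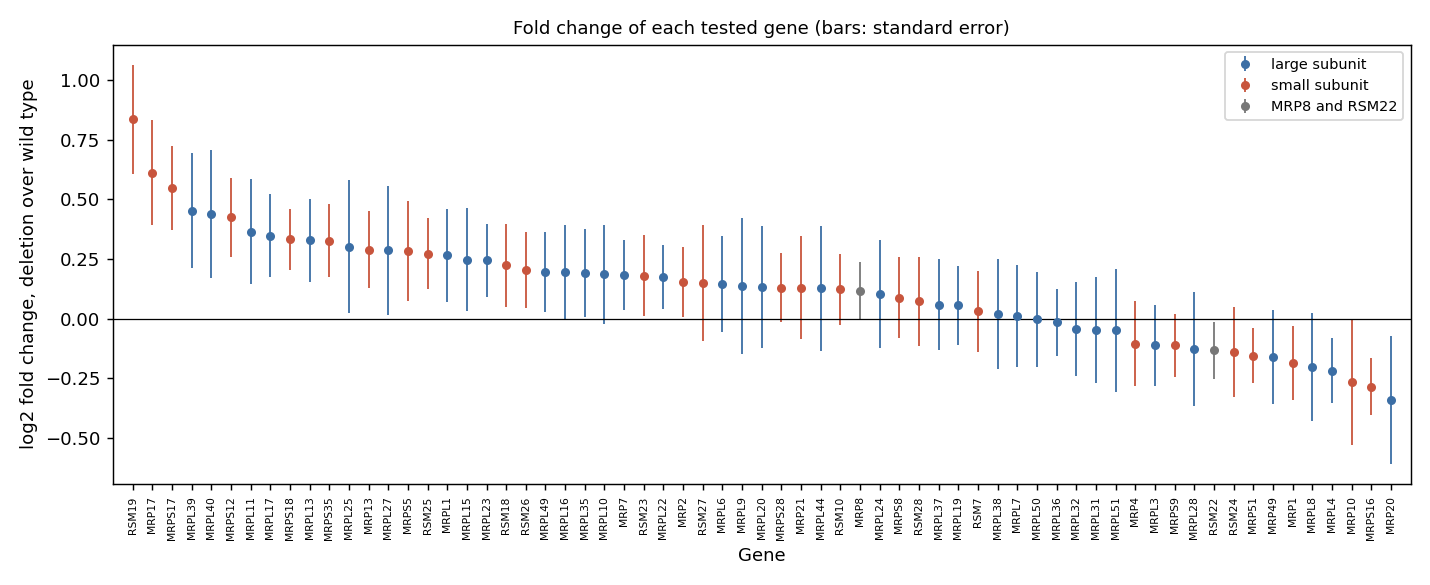
Log2 fold change, CHD1 deletion over wild type, of each of the 65 tested genes in order of size, with bars for the standard error; large-subunit genes are blue, small-subunit genes red, and MRP8 and RSM22 grey. RSM19 leads at 0.84, MRP20 ends at −0.34, and 46 of the 65 points lie above 0.

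Fold changes moved with level across the whole genome, and the members are not spread evenly over levels. With all tested genes cut into 5 equal groups from low to high CPM, the log2 fold changes of all genes had medians of 0.15, 0.08, 0.03, −0.03 and −0.11. Members fell into these groups as 13, 28, 15, 7 and 2 genes, with medians of 0.13, 0.15, 0.18, 0.09 and −0.01. In the lower 3 groups, which held 56 members, 42.9% of members stood above wild type in both libraries and 8.93% below. Of all 3293 genes in those groups 30.2% stood above and 15.2% below, and the medians were 0.15 for members and 0.08 for all. The part of level in the members' median was not tested.

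**Figure D5:**
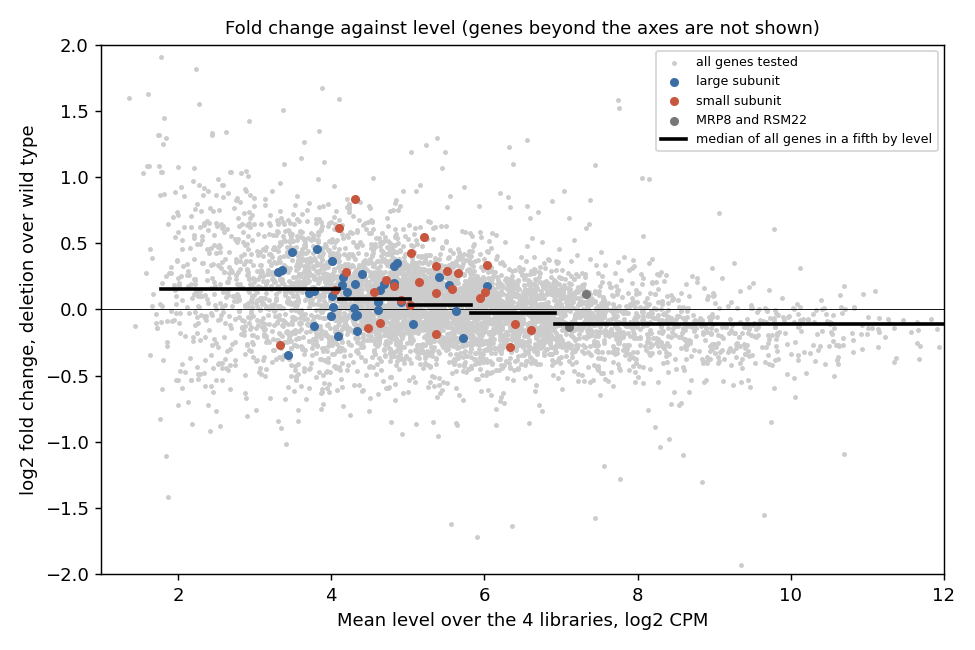
Log2 fold change, CHD1 deletion over wild type, against mean level over the 4 libraries in log2 CPM, for all tested genes within the axes (pale grey), large-subunit genes (blue), small-subunit genes (red) and MRP8 with RSM22 (dark grey). Black lines are the median of all genes in each of 5 equal groups by level, which go down from 0.15 to −0.11, and 46 of the 65 members lie above 0.

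Cytosolic ribosomal protein genes, which supply the ribosomes of the cytosol, gave other values in the same fit. None of 138 passed as higher and 12 passed as lower, with a median log2 fold change of −0.13. Among all genes tested the shares that passed were 1.68% and 3.06%. With library sizes from total gene counts the median was −0.02 and 3 passed as lower; relative to all genes it was −0.13 under both. In 9 genes (6.52%) both deletion libraries stood above wild type and in 74 (53.6%) below, beside 24.9% and 24.4% of all genes. Their median level was far above that of the members, toward the end of the range where fold changes of all genes were below 0. Of the 1098 genes in the highest of the 5 groups by level, 20 passed as higher and 115 as lower. In that group 13.3% stood above wild type in both libraries and 46.7% below, with a median of −0.11. The part of level in the cytosolic values was not tested.

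The list of 78 other genes of mitochondrial protein synthesis includes the 6 regulators, and 77 of the 78 were tested. Of these, 2 passed as higher (HAP4 and MRF1), 1 as lower (SFP1) and 74 did not pass. Over all genes tested 1.68% passed as higher and 3.06% as lower. HAP4 and SFP1 are regulators, and MRF1 is a translation factor. The median of the 77 was 0.08, with 20 (26.0%) above wild type in both libraries and 8 (10.4%) below, beside 24.9% and 24.4% of all genes. The 13 ribosomal proteins with names of another form had a median of 0.11, the 14 aminoacyl-tRNA synthetases 0.11, the 12 translation factors 0.03 and the 7 assembly factors 0.31. The 17 activators and insertion factors had a median of 0.00, the 9 transcription and turnover genes 0.08 and the 5 tested regulators 0.10.

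HAP4, which encodes the activating subunit of the CCAAT-binding complex that turns on respiratory genes, had 88.9 and 80.4 CPM in the deletion, against 57.8 and 57.2 CPM in wild type. It rose by 0.57 ± 0.13 log2 units (adjusted p = 0.0149). MRF1, the mitochondrial release factor that ends translation, had 44.2 and 42.6 CPM in the deletion, against 28.1 and 28.4 CPM in wild type, and rose by 0.62 ± 0.16 (adjusted p = 0.0286). In both genes the 2 libraries of a genotype lay close together and the genotypes did not overlap. HAP4 lost its call without deletion replicate 1 (adjusted p = 0.177) and with DESeq2 (0.0736). MRF1 lost it where either deletion library was left out (0.171 for replicate 1, 0.0643 for replicate 2), and DESeq2 gave it no adjusted p.

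SFP1, a transcription factor of cytosolic ribosomal protein and ribosome biogenesis genes, had 59.8 and 58.3 CPM in the deletion, against 67.6 and 121 CPM in wild type. It fell by 0.71 ± 0.18 log2 units (adjusted p = 0.0327), and wild-type replicate 2 stood far above the other libraries. With that library left out the log2 fold change came to −0.18 (adjusted p = 0.613). The call was also lost with total gene counts (0.0769) and DESeq2 (0.474). PET122, which activates translation of a mitochondrial message for cytochrome oxidase, had 11.9 and 14.6 CPM in the deletion, against 11.8 and 22.7 CPM in wild type (log2 fold change −0.47, adjusted p = 0.350). Here too the higher value came from wild-type replicate 2, and without that library the difference was 0.14. It passed without wild-type replicate 1 (−0.80, adjusted p = 0.0177). PUF3, named for the motif and outside the naming rule, had 44.0 and 44.5 CPM in the deletion and 39.0 and 53.6 CPM in wild type (−0.09 ± 0.16, adjusted p = 0.804).

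Promoters of members were searched for 3 motifs on both strands, in the window from 250 bases before to 50 after the start codon. Matches of these motifs may overlap each other. TTACCCG, the motif of the factor Reb1, was found in 10 of 66 members (15.2%) and in 7.28% of all genes. The motif of the factor Abf1, TCA and ACG with any 6 bases between them, was found in 17 members (25.8%) and in 14.6% of all genes. CCAAT, which the complex with HAP4 binds, was found in 27 members (40.9%) and in 43.7% of all genes. Reb1 and Abf1 are general regulatory factors that keep promoters free of nucleosomes. The 10 members with TTACCCG had a median log2 difference of 0.13, and the 27 with CCAAT one of 0.17, against 0.12 in the 38 tested members without CCAAT.

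With the Puf3 motif, the 63 tested members had a median log2 difference between genotypes of 0.14. Among genes that are not members, the 755 tested with the motif had a median of 0.04 and the 4665 without it −0.003.

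MRPL44, a large-subunit protein with no bacterial counterpart, was the one member with an annotated intron. The intron, of 147 bases at chrXIII:721199-721345 on the minus strand, splits the coding sequence into a first exon of 58 bases and a second of 239. Counted apart in the deposited intron tables, it held 30 and 19 reads in the deletion, against 11 and 22 in wild type. The second exon held 28 and 22 reads in the deletion, against 7 and 20 in wild type, and the first exon was at 0 in all 4 libraries. The intron thus took 51.7% (39.2 to 64.1) and 46.3% (32.1 to 61.3) of these reads in the deletion, against 61.1% (38.6 to 79.7) and 52.4% (37.7 to 66.6) in wild type, with Wilson intervals at 95% confidence that cover counting error only. Both deletion shares lay below both wild-type shares, all 4 intervals overlapped, and the difference was not tested.

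Per base, the MRPL44 intron was covered 2.15 times as densely as its exons over the 4 libraries. Among 216 genes with an annotated intron and at least 50 reads, the median ratio was 0.0156, 5 genes lay above 1, and MRPL44 ranked 2. The first was IMD4. Whether reads were counted by strand is not stated, so reads from another transcript across the MRPL44 intron cannot be told apart. Over the whole gene MRPL44 had 13.3 and 14.6 CPM in the deletion, against 8.89 and 15.5 CPM in wild type (log2 fold change 0.13, adjusted p = 0.850), and the genotypes overlapped. These rest on 57 and 39 reads in the deletion, against 18 and 43 in wild type. Intron and exon reads together came to 58 and 41 in the deletion, against 18 and 42 in wild type. The level and fold change of MRPL44 thus appear to include the intron reads, and may not be those of the spliced message. Since use of strand is not stated, reads of 3 members that overlap another annotated gene, MRP4, MRPL19 and MRPL51, cannot be told apart from those of the other gene.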

How the data were processed

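The deposited tables, 2 for each of the 4 libraries, hold whole-number read counts over genes and over introns with their exons, per the file headers. CASAVA 1.8, TopHat and sacCer3 are named in the submitters' processing notes; not given in the sources used here are the TopHat version, the counting program, the annotation and whether strand was used. Libraries were made with a kit for small RNA, per the labels. Only the deposited counts were used.

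Genes past edgeR's filterByExpr (minimum count 10) were tested with edgeR 4.0.16's quasi-likelihood test (R 4.3.3), TMM factors, a single genotype term and adjustment by Benjamini-Hochberg over 5488 genes. Standard errors are the fold change over the square root of F. The test was run first on simulated counts. Alternatives were library sizes from total gene counts, RLE factors, no filter, a minimum count of 50, DESeq2 1.42.0, limma-voom (limma 3.58.1), the replicate number as a block, and each library left out. The labels do not say whether a shared replicate number pairs libraries.

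Named genes were those past the threshold, the 6 smallest p in each direction, the 4 highest and lowest levels, intron holders, MRP8 and RSM22, and, of the other list, those past the threshold and the 2 smallest p in each direction. The members and lists were chosen with earlier results of these data known. Identifiers were matched to the R64 annotation (5813 of 5816), and coordinates are 1-based.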

Additional observations from a re-analysis of the deposited data

How the results depend on the processing

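The members' median log2 fold change was positive in all 11 alternatives: 0.24 with total gene counts (all genes 0.11) and 0.072 to 0.20 over the 4 fits that each leave out 1 library. Members higher numbered 2 with total gene counts and 2 with the replicate number as a block (MRPS17 and RSM19). They numbered 0 with DESeq2, where 46 of 65 members had no adjusted p, and 0 with limma-voom. No pairing of replicate numbers is given by the labels. Differences between replicates 1 and 2 in the deletion correlated at 0.014 over genes with the same differences in wild type. No member was called lower in any fit of all 4 libraries. Without adjustment, the edgeR fits of all 4 libraries gave 1 lower member past 0.05, except for 0 with total gene counts. DESeq2 gave 0. With total gene counts 31 members were above wild type and 3 below, beside 38.9% and 13.8% of all genes; with 1 library left out, 28 to 39 were above and 10 to 17 below, beside 34.1% to 40.8% and 34.3% to 37.9% of all genes. Other mitochondrial translation genes numbered 0 lower with total gene counts, 0 higher and 0 lower with DESeq2, and 1 to 4 higher and 0 to 2 lower with 1 library left out. Over all genes, 92 were higher and 168 lower in the main test, against 176 and 65 with total gene counts, 32 and 123 with DESeq2, 165 and 259 with the block, 213 and 364 where wild-type replicate 1 was left out, 63 and 70 where deletion replicate 1 was, and 58 and 90 where deletion replicate 2 was. With 1 library left out, 25 of 65 members turned sign in at least 1 fit; of the genes named by rule, those that did ranged in log2 fold change from −0.28 to 0.025 for RSM22, −0.028 to 0.26 for MRP8, −0.19 to 0.53 for MRPS8, −0.23 to 0.54 for MRPL9, −0.16 to 0.64 for MRPL44 and −0.80 to 0.14 for PET122; the cause was not tested. A lone library was assumed to vary like the pair of the other genotype, and members with under 50 reads, 7 and 16 in the deletion and 36 and 21 in wild type, limit the precision.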

Other observations

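Members with and without the Abf1 motif in the promoter window are set side by side here because of values noticed in these data; no difference between them was tested. The 17 members with the motif had a median log2 fold change of −0.11, with 7 positive and 10 negative, while the 48 tested members without it had a median of 0.14, with 39 positive and 9 negative. Over all genes tested the medians were −0.01 with the motif and 0.01 without. Of the 6 lower members with the smallest p, 5 hold the motif (MRPS16, MRPL4, MRP51, MRP20 and MRP1), and of the 6 higher ones, 2 do (RSM19 and MRPS18). In 6 of the 17 both deletion libraries stood above wild type and in 4 below, against 19 and 3 of the 48. The shares over all genes tested were 24.9% above and 24.4% below. Median levels were close, 34.8 reads per kb per 1e6 reads with the motif and 32.4 without. The sites of 3 of these genes follow, 5′ to 3′ on the strand that holds the motif, which is in capitals.
MRPS16: gatcatctaTCATTCAGGACGgaaaaaatg
MRPL4: cgcgacctaTCACACAGCACGgatagccaa
RSM19: gcgtttggaTCACTATTCACGgttatggct
They lie on sacCer3 at chrXVI:529468-529497 (minus strand), chrXII:1014326-1014355 (plus strand) and chrXIV:695443-695472 (minus). Over 11 alternatives, chosen for this comparison after seeing the data, the median with the motif ran from −0.16 to 0.07 and that without it from 0.12 to 0.24. The highest value with the motif, 0.07, came without deletion replicate 1, so the negative median rests on that library. With total gene counts the median with the motif was −0.008, but there the median of all genes was 0.11, against 0.004 in the main fit.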
